A study of Mus musculus with 34 samples.

Results

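Lin28a and Lin28b are the paralogous mouse genes for LIN28, an RNA-binding protein of early embryonic cells. They were taken as the 2 rows of the counts table whose Ensembl identifiers carry these symbols, out of 21789 genes, and followed through all 10 groups of embryonic day and genotype. Lin28a (ENSMUSG00000050966) lies at chr4:134003330-134018841 on the minus strand of GRCm38, and its merged exons span 3996 bases. Lin28b (ENSMUSG00000063804) lies at chr10:45376620-45486395, also on the minus strand, and its merged exons span 9065 bases. Lin28a overlaps the annotated gene Gm13061, for which the counts table has no row, and Lin28b overlaps no annotated gene. Poly(A) RNA was sequenced from 34 whole embryonic mouse lungs, with total counts of 7147301 to 17624884 per library. Control lungs, which carry no Lin28a expression according to the labels, and lungs with global Lin28a expression were taken in numbers of 3 each at E12.5, 3 and 4 at E14.5, 3 each at E16.5, and 5 each at E18.5. Lungs with epithelial (n = 3) and mesenchymal (n = 2) Lin28a expression were taken at E18.5.

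Every group, controls included, received doxycycline at 1 g/L in its water from E0.5. Library titles add the tag Vasa for global, Nkx2.1 for epithelial and Wt1 for mesenchymal expression. The labels describe no allele, promoter, strain or driver, and they do not say whether replicates came from separate litters, so p-values measure the spread between these samples only. A read of Lin28a counts the same whether it came from the transgene or from the endogenous gene. Ddx4, the Vasa gene of germ cells, stayed at or under 1.15 CPM (counts scaled to a common normalised total) in every library. Nkx2-1, a transcription factor of lung epithelium, had group means of 174 to 856 CPM, and Wt1, a mesothelial transcription factor, of 3.13 to 40.5 CPM.

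LIN28 proteins bind the precursors of let-7 microRNAs, block their cutting by Drosha and Dicer and recruit uridylyl transferases that mark the precursor for decay. Mature let-7 lowers growth-related transcripts, among them those of Lin28a and Lin28b themselves, so that the proteins and the microRNA restrain each other. Both LIN28 proteins are known for high levels in early embryos and a loss as tissues differentiate. In the lung, this period covers branching of the airways and then the formation of alveolar cells.

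The sequences through which this loop runs are shown first, because the later values concern genes at each of its steps. RefSeq lists 9 mature mouse members of the let-7 family on GRCm38.p6, and all 9 carry the same seed, bases 2 to 8, given here in capitals. Of these, 5 show how the rest of the molecule varies.
let-7a: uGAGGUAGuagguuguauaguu
let-7d: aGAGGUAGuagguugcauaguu
let-7e: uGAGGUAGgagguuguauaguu
let-7g: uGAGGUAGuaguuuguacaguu
miR-98: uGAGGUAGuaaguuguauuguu

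LIN28 is known to contact a GGAG motif near the end of the precursor loop. The motif GGAG (this strand only, searched between the arms, with no other motif searched) was found in 9 of 11 let-7 hairpins (81.8%), against 44 of 634 other mouse hairpins (6.9%). The 11 are the hairpins named let-7 and leave out that of miR-98. The 2 let-7 hairpins without it were let-7b and let-7c-2, which lie close together on chromosome 15. A hairpin with the motif is set beside these 2, with GGAG in capitals.
let-7g (chr9:106178840-106178927, plus strand): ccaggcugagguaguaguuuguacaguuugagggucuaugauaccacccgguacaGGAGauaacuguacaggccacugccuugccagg
let-7b (chr15:85707319-85707403, plus strand): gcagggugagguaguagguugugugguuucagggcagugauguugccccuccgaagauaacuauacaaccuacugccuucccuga
let-7c-2 (chr15:85706603-85706697, plus strand): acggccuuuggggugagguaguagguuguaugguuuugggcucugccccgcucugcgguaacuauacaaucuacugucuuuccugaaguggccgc

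The match to the seed, CTACCTC on the transcript strand, was looked for in annotated 3′ untranslated regions. Lin28a holds 2 matches in 2775 bases and Lin28b holds 4 in 4445 bases. Of 16101 untranslated regions of genes in the counts table, 9.1% hold at least 1 match and 1.13% at least 2. Among the 2408 regions at least as long as that of Lin28a, the shares are 23.9% and 4.9%. Both Lin28a matches and the first Lin28b match are followed by A, a base known to favour microRNA targeting. In the target sites below, capitals mark the match and that A.
Lin28a site 1 (chr4:134005190-134005196): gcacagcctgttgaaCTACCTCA
Lin28a site 2 (chr4:134004552-134004558): gagatcgccacaaacCTACCTCA
Lin28b site 1 (chr10:45381023-45381029): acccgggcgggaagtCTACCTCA
Lin28b site 2 (chr10:45378649-45378655): tatacttgttagtaaCTACCTCt
Lin28b site 3 (chr10:45378477-45378483): gtttacagcacatggCTACCTCc
Lin28b site 4 (chr10:45377061-45377067): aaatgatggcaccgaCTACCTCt
A match is a description of the reference transcript, and whether the transgene carries this region is not given in the labels.

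Some libraries stood apart. Markers of other tissues, summed over each list, were high in some libraries. At E14.5 the thymus markers reached 311 CPM in control 3 against 3.15 CPM at most in the other controls, and the kidney tubule markers reached 430 CPM in global 4 against 16.6 CPM at most in the other global lungs. At E12.5 the cardiomyocyte markers summed to 442, 1850 and 1790 CPM in controls and to 1560, 41.6 and 87.5 CPM in global lungs. At E18.5 the hepatocyte markers were 814 CPM in control 1 against 25.8 CPM at most in the other controls. The erythroid markers at E18.5 summed to 8220 CPM in epithelial 1, against 1250 CPM in epithelial 2 and 1900 CPM in epithelial 3. Controls of that day ran from 1830 to 5420 CPM of erythroid markers. Markers of lung epithelium and of lung mesenchyme were present in every group. At E18.5 the 7 epithelial markers summed to 15300 ± 2240 CPM (SD) in controls, 11300 ± 2220 in epithelial, 3230 ± 934 in global and 4030 ± 1990 in mesenchymal lungs, while the 6 mesenchymal markers had group means between 3440 and 4310 CPM. Most of the epithelial sum was Sftpc, the surfactant gene of alveolar cells, with means of 13600 CPM in controls, 8130 in epithelial, 1460 in global and 2320 in mesenchymal lungs. The other markers did not share its course. In epithelial lungs 5 of the 7 were called higher than in controls and none lower by edgeR. In global lungs 4 were lower and 2 higher, and in mesenchymal lungs 3 were lower and 2 higher. The 2 higher genes were the adhesion gene Epcam, with log2 folds of 1.54 in global and 1.48 in mesenchymal lungs, and the tight junction gene Cldn6, with 3.84 and 3.61. Among all genes tested, 18% were higher and 15.2% lower in epithelial lungs at E18.5. These shares were 32.1% and 32.7% in global lungs, and 27.4% and 26.9% in mesenchymal lungs. All 4 endothelial markers were lower in global lungs at E14.5, E16.5 and E18.5, and of the 4 mesothelial markers 3 were lower at E16.5 and 4 at E18.5. The share of all genes tested that was lower in global lungs was 8.44% at E14.5, 20.1% at E16.5 and 32.7% at E18.5. In whole lungs, fewer cells of a type and less RNA per cell cannot be told apart.

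Lin28a separated all 20 transgenic from all 14 control libraries at every day and site. Controls had 3 to 54 reads of the gene per library, or 0.192 to 4.15 CPM, and transgenic lungs had 3423 to 14685 reads, or 289.3 to 1301 CPM. Ranked per exon length among the 18319 genes tested, Lin28a stood between positions 12820 and 17629 in controls and between 70 and 463 in transgenic lungs. The highest control library therefore lay far under the lowest transgenic one.

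At E12.5 the 3 control libraries read 0.844, 3.17 and 0.903 CPM and the 3 global libraries 316.6, 372.4 and 295.9 CPM. The groups did not overlap, and 1 control library stood above the other 2. The log2 fold was 7.65 ± 0.55 (SE; 201-fold, edgeR adjusted p = 3.16e-10), in a comparison that called 0.224% of all genes tested at an adjusted p under 0.05. At E14.5 controls read 4.15, 0.192 and 0.275 CPM and global lungs 353.8, 401.9, 289.3 and 360.5 CPM. Here, too, 1 control library, the first, lay above the other 2, with 54 reads of Lin28a against 3 and 4. The log2 fold was 7.92 ± 0.55 (241-fold, edgeR adjusted p = 7.82e-11; 12.9% of genes called), and it was 10.51 without that control.

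At E16.5 controls read 0.262, 0.270 and 0.809 CPM and global lungs 385.4, 399.5 and 295.3 CPM, with no overlap. The log2 fold was 9.59 ± 0.65 (770-fold, edgeR adjusted p = 3.32e-11; 37% of genes called). At E18.5 controls read 0.481, 0.361, 0.715, 1.79 and 2.88 CPM, and global lungs 458.4, 531 (global 2), 475 (global 3), 744.2 and 447.6 CPM. Global 4 lay well above the other 4 libraries of its group. The log2 fold was 8.56 ± 0.45 (378-fold, edgeR adjusted p = 5.55e-15; 64.8% of genes called). These folds are taken against controls with few reads. With any 1 library left out, the E12.5 fold ran from 7.31 to 8.54, the E14.5 fold from 7.35 to 10.51, the E16.5 fold from 9.32 to 10.35 and the E18.5 fold from 8.37 to 9.13. The change of the global effect from E12.5 to E18.5 was 0.91 (95% interval -0.58 to 2.4) and was not called (edgeR adjusted p = 0.332; 41.6% of genes called).

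Epithelial lungs gave 625.4, 1301 and 928.7 CPM of Lin28a, a log2 fold of 9.40 ± 0.47 over controls (678-fold, edgeR adjusted p = 7.5e-15; 33.2% of genes called). Mesenchymal lungs gave 412 and 550.4 CPM, a log2 fold of 8.42 ± 0.47 (343-fold, edgeR adjusted p = 1.98e-13; 54.3% of genes called). The epithelial group had the highest mean and the widest spread. Set against epithelial lungs, global lungs had a log2 difference of -0.84 ± 0.33 in Lin28a (0.558-fold, edgeR adjusted p = 0.0263), a comparison that called 63.1% of genes, and the ranges of the 2 groups overlapped. That call was lost with DESeq2 (adjusted p = 0.222) and in edgeR without epithelial library 2 (-0.55, adjusted p = 0.187), global library 1 (-0.79, adjusted p = 0.0501), global library 3 (-0.80, adjusted p = 0.0502) or global library 5 (-0.79, adjusted p = 0.05).

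Epithelial and mesenchymal lungs did not overlap in Lin28a level, but the difference of 0.98 (95% interval 0.11 to 1.86) was not called (edgeR adjusted p = 0.0541; 53.3% of genes called). It was 1.21 without epithelial library 1, the one with high erythroid markers, and then passed (edgeR adjusted p = 0.0269). Between global and mesenchymal lungs the difference was 0.14 (interval -0.64 to 0.93; edgeR adjusted p = 1), in a comparison that called 0.0218% of genes.

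**Figure D1:**
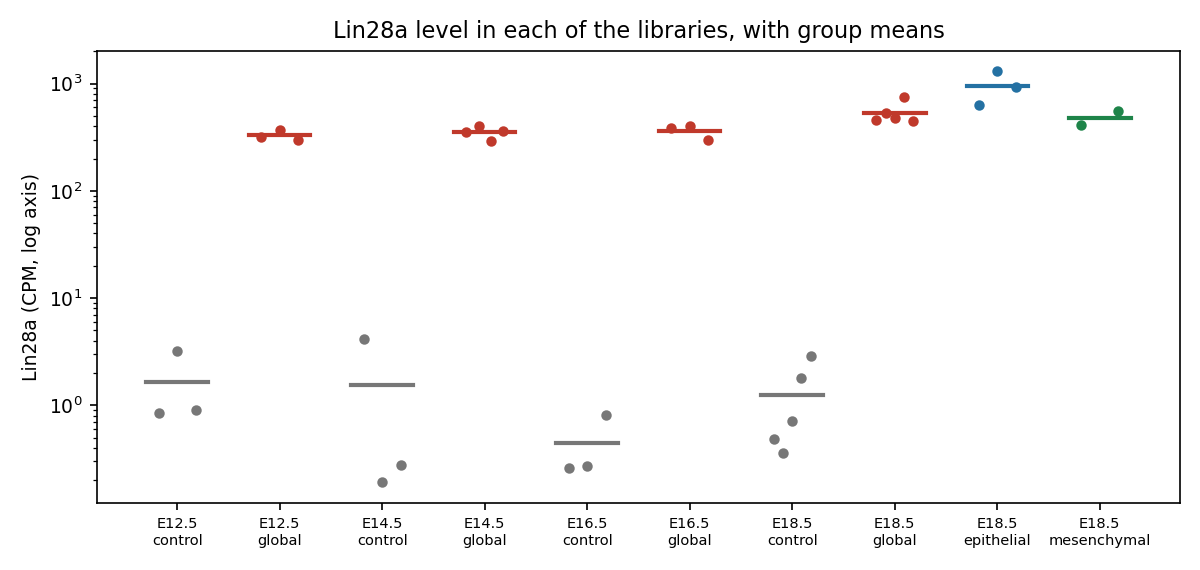
Lin28a level (CPM, log axis) in each library, with a bar at the mean of each of the 10 groups. All transgenic libraries lie between 289.3 and 1301 CPM and all controls at or under 4.15 CPM. The mean is highest in epithelial lungs, whose range overlaps that of global lungs at E18.5.

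Within one genotype no difference of Lin28a between ages was called with all groups fitted together. In global lungs its mean was 328.3 ± 39.6 (SD), 351.4 ± 46.5, 360 ± 56.5 and 531.2 ± 123.3 CPM from E12.5 to E18.5. The ranges of the first 3 ages overlapped, whereas the E18.5 libraries all lay above those of E12.5, E14.5 and E16.5. The fit of all groups together estimated the spread of Lin28a over all libraries, controls with few reads included. The log2 difference from E12.5 to E18.5 was 0.70 (interval 0.00 to 1.39) and was not called (edgeR adjusted p = 0.0972; 45.8% of genes called), although it passed when only those 2 groups were fitted (0.69, edgeR adjusted p = 0.00679). In controls the means were 1.64, 1.54, 0.447 and 1.25 CPM at the 4 ages. The control ranges overlapped from each age to the next, and the later steps were wide, at -1.64 from E14.5 to E16.5 and 1.59 from E16.5 to E18.5. The step from E12.5 to E14.5 was -0.17, and it became -2.75 (edgeR adjusted p = 0.0323) without E14.5 control 1 and 0.72 (adjusted p = 0.62) without E12.5 control 2, so that 1 library with 54 or 45 reads set its size and sign.

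Ordered by mean, Lin28a levels ran from epithelial through global E18.5, mesenchymal, global E16.5, E14.5 and E12.5 to the controls of E12.5, E14.5, E18.5 and E16.5. Neighbours in this order overlapped in range except between mesenchymal E18.5 and global E16.5, and between global E12.5 and control E12.5.

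Lin28b followed another course: it was highest at E12.5, fell with age in both genotypes and was higher in global than in control lungs by a called margin at E16.5 and E18.5. At E12.5 the controls read 6.39, 6.77 and 7.75 CPM. E14.5 controls read 1.997, 1.72 and 4.40 CPM, and those of E16.5 read 0.787, 0.991 and 0.648 CPM. At E18.5 the 5 controls read 0.481, 0.361, 0.238, 0.624 and 0.530 CPM. Neighbouring ages did not overlap at any step. Over the whole period Lin28b fell by 3.92 ± 0.43 on the log2 scale (15.2-fold, edgeR adjusted p = 2.69e-09), in a comparison that called 71.5% of genes.

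The control fall of Lin28b was called over the first 2 steps and not over the last. From E12.5 to E14.5 the log2 difference was -1.36 ± 0.41 (edgeR adjusted p = 0.0191; 16.7% of genes called), and from E14.5 to E16.5 it was -1.74 ± 0.49 (adjusted p = 0.00591; 35.9%). From E16.5 to E18.5 it was -0.83 (interval -1.97 to 0.32; adjusted p = 0.25; 36.3%). At E14.5, control 3 had the highest Lin28b level, and this was the library with thymus markers. Without it the second step was -1.19 (edgeR adjusted p = 0.0779) and no longer called, whereas the first step was -1.90 (adjusted p = 0.00503). The first step lost its call without E12.5 control 3, E14.5 control 1 or E14.5 control 2, with values from -1.28 to -1.11.

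In global lungs Lin28b read 9.73, 16.2 and 11.1 CPM at E12.5 and 5.61, 3.92, 4.40 and 6.52 at E14.5. E16.5 lungs read 4.44, 2.73 and 3.13 CPM, and E18.5 lungs read 1.49, 3.02, 0.522, 1.32 and 3.15 CPM. Those last 5 libraries spread the most for their level, with global 3 at the level of controls. From E12.5 to E18.5 it fell by 2.70 ± 0.36 on the log2 scale (6.48-fold, edgeR adjusted p = 4.27e-07; 45.8% of genes called). Of its steps only the first was called (-1.27 ± 0.36, adjusted p = 0.0356; 4.62% of genes called), and leaving out any of 5 libraries ended that call. The later steps were -0.57 (interval -1.36 to 0.22; adjusted p = 0.476; 6.57% of genes called) and -0.85 (interval -1.64 to -0.07; adjusted p = 0.184; 6.13%).

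Set against controls of the same day, Lin28b in global lungs was 0.82 higher on the log2 scale at E12.5 (interval 0.05 to 1.60; edgeR adjusted p = 0.507), where the ranges did not overlap and the test was not passed. At E14.5 it was 0.91 higher (interval 0.12 to 1.71; adjusted p = 0.125), and ranges overlapped through control 3. Without control 3 the difference was 1.45 and passed (edgeR adjusted p = 0.0419). At E16.5 the log2 fold was 2.08 ± 0.49 (4.22-fold, adjusted p = 0.00109), with every global library above every control. At E18.5 it was 2.05 ± 0.44 (4.14-fold, adjusted p = 0.000163), with 4 of 5 global libraries above every control. Both calls held when any 1 library was left out, with values of 1.85 to 2.25 and 1.76 to 2.30. Cell type markers also differed at these ages. At E16.5 Sftpc read 476 CPM in global and 6680 in control lungs, and 4 of the 7 epithelial markers were lower, while Epcam (0.44) and Cldn6 (1.32) were higher. In that comparison 20.1% of all genes tested were lower and 17% higher. The endothelial markers summed to 866 CPM in global and 1480 in control lungs at E16.5, and to 847 and 2090 at E18.5. The part of these markers in the Lin28b difference was not tested.

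The widening of this difference with age was itself not called. From E12.5 to E18.5 the global effect on Lin28b changed by 1.23 (interval 0.01 to 2.44; edgeR adjusted p = 0.0924). Without E18.5 global 3 the change was 1.48 and passed (adjusted p = 0.0242). From E14.5 to E16.5 the change was 1.17 (interval -0.11 to 2.44; adjusted p = 0.261; 7.88% of genes called). The changes from E12.5 to E14.5 (0.09, interval -1.02 to 1.19) and from E16.5 to E18.5 (-0.03, interval -1.42 to 1.36) were not called either, in comparisons that called 0.0437% and 10.7% of genes.

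**Figure D2:**
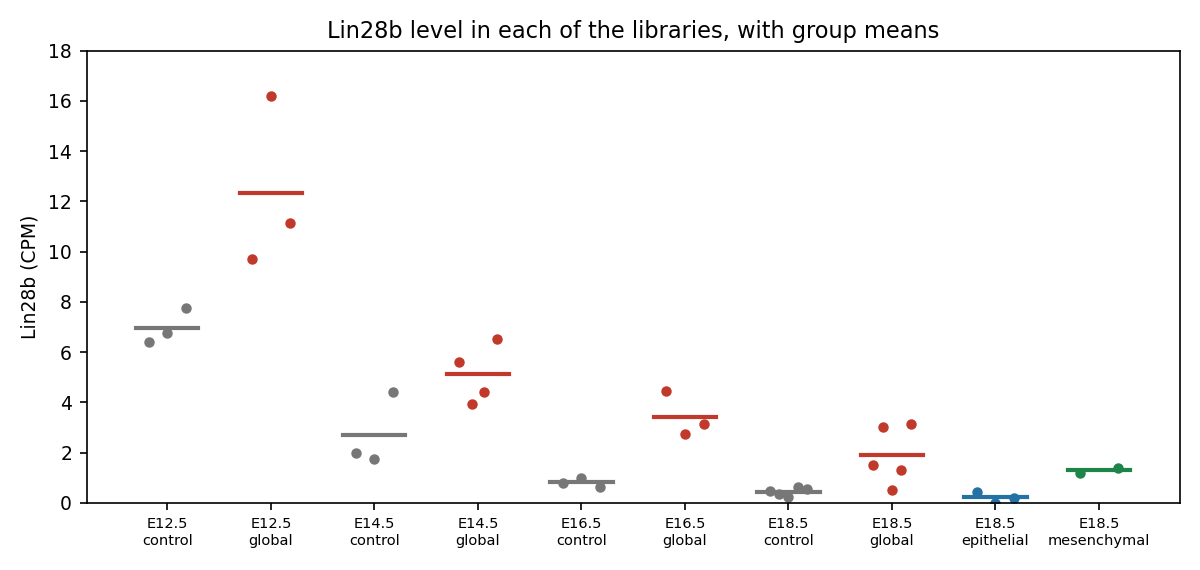
Lin28b level (CPM, linear axis) in each library, with a bar at the mean of each group. Levels fall with age in control and global lungs, and at E18.5 the epithelial lungs lie with the controls while the global and mesenchymal means are higher.

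Lin28b differed between the sites of Lin28a expression. Epithelial lungs held 5, 0 and 2 reads, or 0.446, 0 and 0.184 CPM, where 0 reads allow up to 0.266 CPM (3 counts, counting error only). Mesenchymal lungs held 16 and 18 reads, or 1.19 and 1.40 CPM. Epithelial lungs overlapped with controls and the difference was -1.07 (interval -2.59 to 0.46; edgeR adjusted p = 0.266). Mesenchymal lungs lay above every control, by 1.50 ± 0.56 (2.84-fold, edgeR adjusted p = 0.0233). That call ended without control 3 (1.32, adjusted p = 0.0568), mesenchymal 1 (1.63, adjusted p = 0.059) or mesenchymal 2 (1.40, adjusted p = 0.135).

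Compared with each other directly, Lin28b was 3.11 ± 0.61 higher in global than in epithelial lungs (8.66-fold, edgeR adjusted p = 4.78e-05). The difference of epithelial from mesenchymal lungs was -2.57 ± 0.72 (edgeR adjusted p = 0.003). Neither pair overlapped, and both calls held without any 1 library, but their sizes moved. Without epithelial library 1, the one with high erythroid markers, they were 4.25 and -3.70. Without epithelial library 2, the one with 0 reads, they were 2.54 and -2.0. The difference of epithelial lungs from controls was likewise -2.20 without library 1 and -0.49 without library 2, and was not called either way. Global and mesenchymal lungs differed by 0.55 (interval -0.46 to 1.55; edgeR adjusted p = 1). Epithelial lungs thus had the highest mean of Lin28a and the lowest of Lin28b among the 3 transgenic groups of E18.5. Of the 7 epithelial markers, 5 were lower and 2 higher in global than in epithelial lungs, and 4 were higher and 2 lower in epithelial than in mesenchymal lungs. In these comparisons 63.1% and 53.3% of all genes tested were called in either direction. Epcam read 172 CPM in epithelial, 345 in global and 332 in mesenchymal lungs, and Cldn6 read 103, 281 and 240 CPM. The part of these markers was not tested.

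The order of Lin28b means was global E12.5, control E12.5, global E14.5, global E16.5, control E14.5, global E18.5, mesenchymal E18.5, control E16.5, control E18.5 and epithelial E18.5. Neighbours overlapped in range except between the first pair, between mesenchymal E18.5 and control E16.5, and between control E16.5 and control E18.5. Scaled to exon length (CPM per kilobase of merged exons), Lin28b had the higher mean of the 2 genes in E12.5 controls, at 0.769 against 0.410 for Lin28a. In E12.5 control 2 the order was reversed, at 0.747 for Lin28b against 0.794 for Lin28a. In E18.5 controls Lin28b was the lower, at 0.0493 against 0.312. In global E12.5 lungs, the group with most Lin28b, it reached 1.36 against 82.2 for Lin28a.

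**Figure D3:**
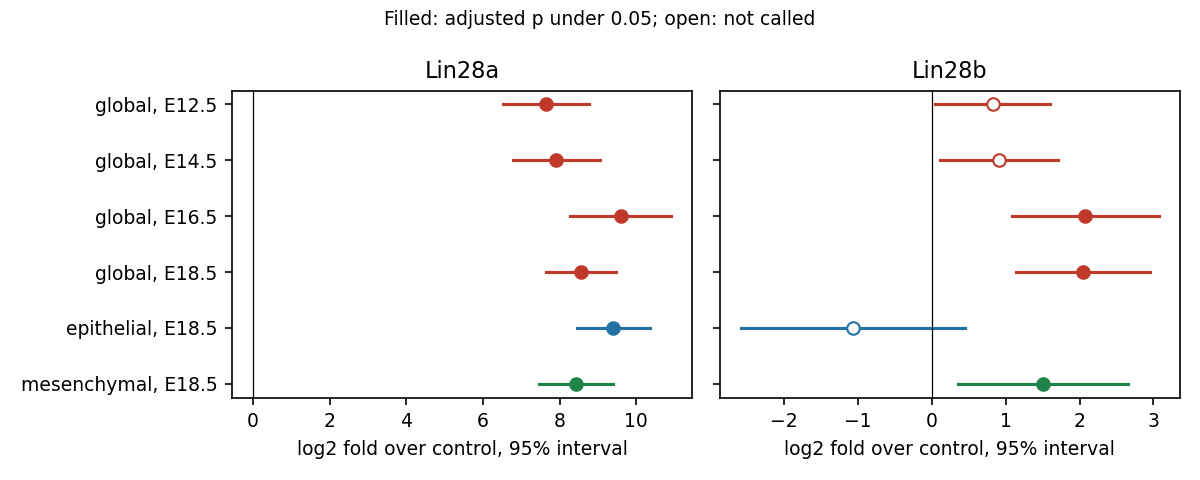
Log2 fold of Lin28a and Lin28b over controls of the same day in the 6 transgenic comparisons, with 95% intervals; filled points have an adjusted p under 0.05. Lin28a lies between 7.65 and 9.59 throughout, while Lin28b ranges from -1.07 in epithelial lungs to 2.08 in global lungs at E16.5.

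The counts table has 8 genes that span a let-7 hairpin on the same strand, here called hosts. Their reads count poly(A) RNA of the whole gene and do not measure the let-7 primary transcript itself. Spaca6, Huwe1 and Wdr82 are annotated as protein-coding genes and D630033A02Rik as a processed pseudogene. Mature let-7 was not measured either, and transcription of a host comes before the step that LIN28 is known to block. Of the 8, none was called at E12.5, 2 were higher at E14.5, 5 at E16.5 and 6 at E18.5 in global lungs. Lncppara was called lower in global lungs at E18.5. Over all genes tested, 0.12%, 4.44%, 17% and 32.1% were higher in those comparisons, and 32.7% were lower at E18.5. In epithelial lungs 2 were higher and 1 lower (18% and 15.2% of all genes), and in mesenchymal lungs 5 were higher (27.4%).

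Mir100hg, listed as 3110039I08Rik and host of let-7a-2, held its level in global lungs with means of 29.6, 27.2, 22.4 and 25.8 CPM. In controls its means were 27.3, 15.7, 7.61 and 6.43 CPM at the same ages. Its log2 fold at E18.5 was 1.98 ± 0.23 in global lungs (edgeR adjusted p = 1.12e-08) and 2.13 ± 0.27 in mesenchymal lungs (adjusted p = 1.66e-07), but 0.17 (adjusted p = 0.672) in epithelial lungs. Mir99ahg, host of let-7c-1, and Wdr82, a chromatin-associated gene that spans let-7g, followed the same order, with log2 folds of 1.05, 1.16 and -0.07 for the first and 0.74, 0.81 and -0.09 for the second in global, mesenchymal and epithelial lungs. The global and mesenchymal folds were called and the epithelial ones were not. Huwe1, a ubiquitin ligase gene around let-7f-2, was 0.35 higher in both global and mesenchymal lungs. Spaca6, a sperm membrane gene that spans let-7e, had log2 folds of 0.50 in global, 0.60 in mesenchymal and -0.47 in epithelial lungs, all called.

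Lncppara spans let-7b and let-7c-2, the hairpins without GGAG between their arms. It read 6.38 ± 2.95 CPM (SD, n = 3) in epithelial lungs, 1.57 ± 1.52 in E18.5 controls and 0.474 ± 0.0785 in global lungs. The log2 fold was 2.16 ± 0.47 in epithelial lungs (edgeR adjusted p = 0.000712) and -1.58 ± 0.53 in global lungs (adjusted p = 0.00903). E18.5 controls ran from 0.234 to 3.37 CPM, and every global library, at 0.367 to 0.572 CPM, lay inside that range. Mesenchymal lungs read 0.462 CPM, with a log2 fold of -1.61 ± 0.71 that was not called (edgeR adjusted p = 0.0539). 6720427I07Rik, which holds let-7a-1, let-7d and let-7f-1, was higher in global (0.74 ± 0.19, edgeR adjusted p = 0.00114) and epithelial lungs (0.75 ± 0.22, adjusted p = 0.00801). D630033A02Rik around let-7i was not called in any of the 6 comparisons, with log2 folds from -0.37 to 0.16. Epithelial markers differed between the same groups in both directions, with Sftpc lower and Epcam and Cldn6 higher in global and mesenchymal lungs than in controls, and their part in these host levels was not tested.

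**Figure D4:**
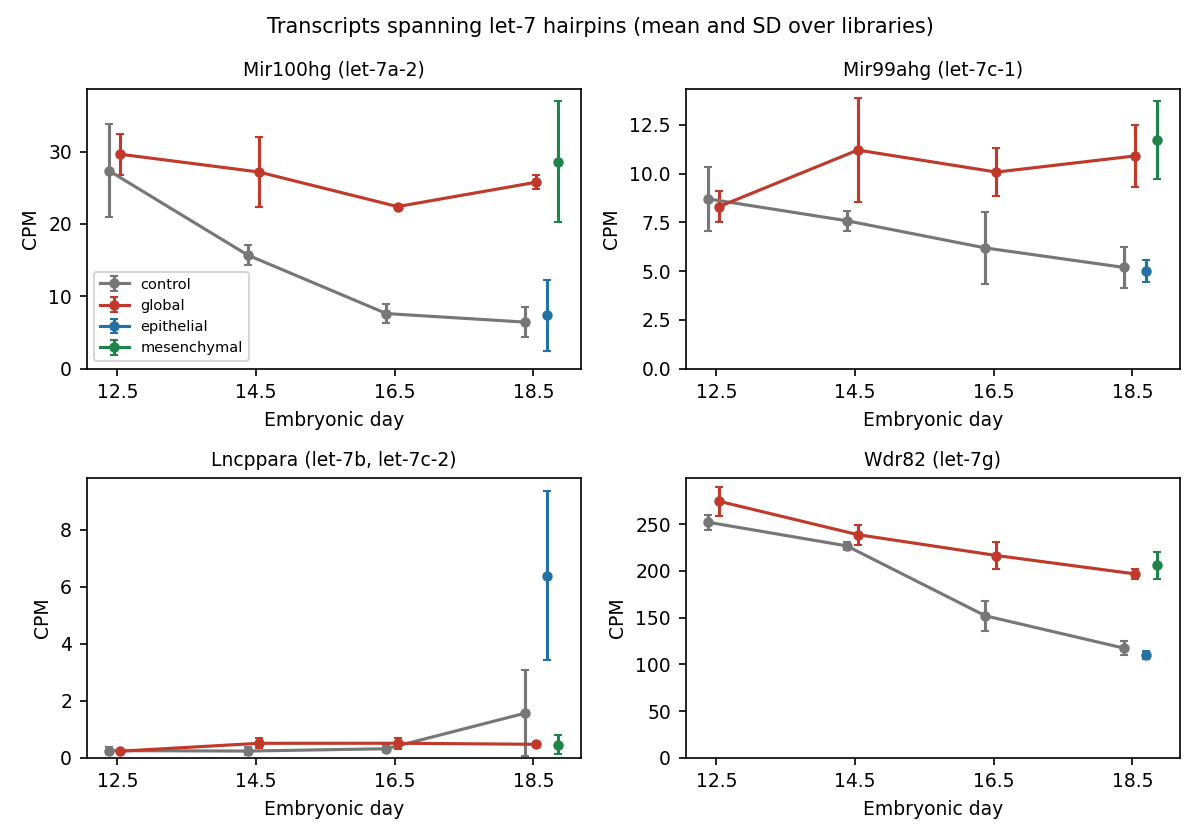
Mean level (CPM, error bars SD over libraries) of 4 transcripts that span let-7 hairpins, by embryonic day and group. In global lungs Mir100hg stays between 22.4 and 29.6 CPM while controls fall from 27.3 to 6.43 CPM, and Lncppara is highest in epithelial lungs at 6.38 CPM.

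Among 22 genes that act with LIN28 or on let-7 precursors, Dicer1, the enzyme that cuts the precursor loop, was higher in each of the 6 comparisons, by 0.56 at E12.5, 0.79 at E14.5, 0.99 at E16.5 and 0.91 at E18.5 in global lungs, 0.59 in epithelial and 0.98 in mesenchymal lungs. Of the list, 1, 5, 12 and 14 genes were higher in global lungs from E12.5 to E18.5, and 0, 1, 1 and 3 were lower. In mesenchymal lungs 13 were higher and 2 lower, and in epithelial lungs 6 were higher and 5 lower. Medians of the list were 0.115, 0.135, 0.398 and 0.426 in global lungs, 0.480 in mesenchymal and 0.159 in epithelial lungs, where the median over all genes lay between -0.036 and -0.002. Over all genes tested, 0.12%, 4.44%, 17% and 32.1% were higher and 0.104%, 8.44%, 20.1% and 32.7% lower in global lungs at the 4 ages. The shares were 27.4% higher and 26.9% lower in mesenchymal lungs, and 18% and 15.2% in epithelial lungs.

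Tut4, the uridylyl transferase that LIN28A recruits, was 0.58 higher at E14.5, 0.75 at E16.5 and 0.88 at E18.5 in global lungs, 0.92 in mesenchymal and 0.56 in epithelial lungs. Its relative Tut7 was lower at E18.5, with log2 folds of -0.50 in global and -0.38 in mesenchymal lungs, and the Argonaute gene Ago4 had -0.91 and -0.95. Ago3 was the third lower gene in global lungs, at -0.39, and these 3 were singled out after their values were seen. Msi1, an RNA-binding protein of progenitor cells that acts with LIN28 in mouse neural differentiation, was 0.67, 1.75 and 2.47 higher from E14.5 to E18.5 in global lungs and 2.27 in mesenchymal lungs, with -0.01 (edgeR adjusted p = 0.979) in epithelial lungs. Xpo5, the exporter of precursors from the nucleus, was 0.76 higher at E16.5 and 0.99 at E18.5 in global lungs and had a log2 fold of -0.31 in epithelial lungs. In epithelial lungs Trim25, a cofactor of TUT4, was 1.15 ± 0.13 higher (edgeR adjusted p = 9.7e-08), while in global lungs at E18.5 it was at 0.24 (adjusted p = 0.0734).

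The 32 tested let-7 target genes were described for their count and level. In global lungs 7, 18, 24 and 26 were higher and 0, 0, 1 and 3 lower from E12.5 to E18.5, with median log2 folds of 0.369, 0.480, 0.776 and 0.892. Over all genes tested, 0.12%, 4.44%, 17% and 32.1% were higher and 0.104%, 8.44%, 20.1% and 32.7% lower in these comparisons. In mesenchymal lungs 23 were higher and 3 lower (median 0.837), against 27.4% and 26.9% of all genes. In epithelial lungs 16 were higher and none lower by edgeR at an adjusted p under 0.05 (median 0.405), against 18% and 15.2%. The median over all genes lay between -0.036 and -0.002 in the 6 comparisons. Hmga2, a chromatin protein of growing embryonic cells whose untranslated region holds 4 seed matches, had control means of 302.8, 67.6, 33.7 and 18.3 CPM and global means of 694.4, 401.2, 266.9 and 211.5 CPM. Its level was 152.7 CPM in mesenchymal and 27.1 CPM in epithelial lungs.

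Hmga2 thus resembled Lin28b in falling with age in both genotypes and in the order of the sites at E18.5. Unlike Lin28b it was called in epithelial lungs, with a log2 fold of 0.57 ± 0.17 (edgeR adjusted p = 0.00864) against 3.54 ± 0.15 in global and 3.07 ± 0.17 in mesenchymal lungs. Igdcc3, a surface protein of embryonic tissue, was 3.31 higher in global, 2.99 in mesenchymal and 1.04 in epithelial lungs. Mycn, a growth regulator of the embryonic lung, was 2.92 and 2.44 higher in global and mesenchymal lungs and stood at 0.36 (edgeR adjusted p = 0.18) in epithelial lungs. The largest epithelial folds of the list were those of Irs2 (1.67 ± 0.18), an adaptor of insulin receptors, and the D cyclin gene Ccnd2 (1.66 ± 0.10). In global and mesenchymal lungs Irs2 was lower, with log2 folds of -0.85 and -1.14. E2f2 and Insr were the other members called lower in both, named here after their values were seen.

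**Figure D5:**
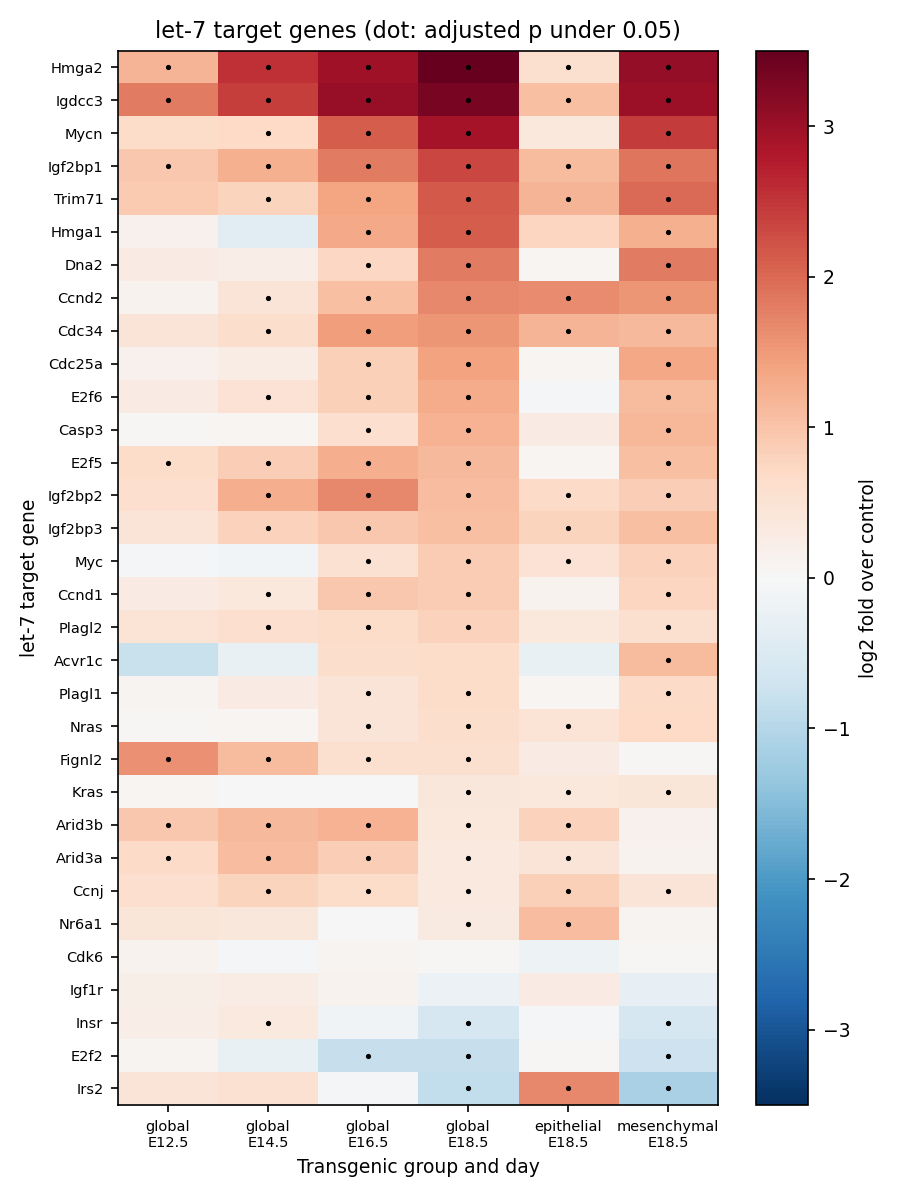
Log2 fold over controls of 32 let-7 target genes (rows) in the 6 transgenic comparisons (columns), with a dot where the adjusted p is under 0.05. Hmga2 and Igdcc3 head the list at 3.54 and 3.31 in global lungs at E18.5, and the epithelial column is paler, with Irs2 and Ccnd2 at 1.67 and 1.66.

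Lin28a is one of the factors that return differentiated cells to pluripotency, so the genes of that state were listed beside it. Of 10 listed, 6 had rows in the counts table and 5 could be tested. Sall4, a zinc-finger factor of early embryos, was higher in global lungs at each age, from 2.03 ± 0.45 at E12.5 (6.94 against 1.69 CPM) to 6.56 ± 0.61 at E18.5 (6.27 against 0.0477 CPM). It was 6.2 ± 0.69 higher in mesenchymal lungs, while in epithelial lungs it read 0.241 CPM (1.92, edgeR adjusted p = 0.159). Sox2, which also marks airway epithelium, rose by 1.51 at E16.5 and 1.87 at E18.5 in global lungs, and by 1.29 in mesenchymal lungs. Klf4, also an epithelial differentiation factor, was lower in global lungs at E16.5 (-1.27) and E18.5 (-3.05) and in mesenchymal lungs (-3.25). Esrrb was called at E14.5 alone (1.22), and Nanog, at group means under 1 CPM, was not called in any of the 6. None of the 5 was called in epithelial lungs by edgeR at an adjusted p under 0.05. Of all genes tested, 33.2% were called in epithelial and 54.3% in mesenchymal lungs. In global lungs the shares called were 0.224%, 12.9%, 37% and 64.8% from E12.5 to E18.5.

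Neighbouring genes were examined for changes around the Lin28 loci. Dhdds, a dolichol synthesis gene whose end lies 2412 bases from Lin28a, was not called in any of the 6 comparisons, with log2 folds from -0.24 to 0.10. Bves, 4141 bases from Lin28b, was not called either, with values from -0.96 to 0.99. Farther from Lin28a, Hmgn2 was called in global E18.5 lungs (0.99), Cd52 was lower there (-2.01), and Crybg2 was 2.23 ± 0.19 higher in epithelial lungs (edgeR adjusted p = 5.39e-10). Crybg2 and Cd52 overlap in the annotation, so their reads may not be fully told apart. Farther from Lin28b, Popdc3 had a log2 fold of -2.52, Gpx4-ps2 of -0.84 and Hace1 of 0.33 in global E18.5 lungs, all called. Of all genes tested, 64.8% were called in global E18.5 lungs and 33.2% in epithelial lungs, so a call alone does not set a neighbour apart.

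The genes whose log2 CPM followed Lin28a most closely over the 34 libraries were Ffar4 (Pearson r = 0.915, Spearman rho = 0.842), Hic2 (0.896, 0.860), Serinc2 (0.892, 0.767) and Chd7 (0.863, 0.672). Because Lin28a falls into a control and a transgenic cluster, these values mostly describe the distance between the clusters. For Lin28b the closest genes were Dpysl4 (r = 0.945, rho = 0.955), Skida1 (0.941, 0.958), Elovl6 (0.940, 0.960), Mpdz (0.938, 0.947) and Zfp521 (0.938, 0.939). Over the 14 control libraries alone they were Asb4 (r = 0.979), Flywch2 (0.976), Hs3st4 (0.975), Abat (0.975) and Vps16 (0.973), with rho from 0.913 to 0.987. Libraries within a group share age and genotype and the groups differ in them, so the values mostly describe a common course over the groups.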

How the data were processed

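Whole embryonic lungs were profiled by poly(A) RNA-seq in 34 libraries. Per the submitters' processing notes, reads passed through bcl2fastq 2.17.1.14, cutadapt, STAR 2.4.2a and HTSeq 0.6.1p1 on GRCm38; DESeq2 1.10.1 is also named, and strandedness is not given in the sources used here. The deposited table holds raw read counts per Ensembl gene for each sample, made by the authors with no row under a largest count of 6. A second deposited table of normalised values was not used. Of 21789 identifiers, 21754 matched the GENCODE M21 annotation of GRCm38, which gave symbols and coordinates. One count column with the tag Wt2 was taken as the second mesenchymal library, since its day and number match no other title.

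Counts were fitted with edgeR 4.0.16 in R 4.3.3 as 10 group means over all 34 libraries (TMM scaling, low counts removed by filterByExpr, 18319 genes tested, 24 residual degrees of freedom). Both members passed that filter. Quasi-likelihood F tests gave 21 comparisons, each with Benjamini-Hochberg adjustment over all genes tested and called at an adjusted p under 0.05. Log2 folds carry the standard error from the fit, and intervals are 95% intervals. Levels are CPM of the TMM-scaled totals; log2 levels for likeness used a prior count of 2. The script was tested on simulated counts with known changes.

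Alternatives were DESeq2 1.42.0, RLE scaling, no filter, the compared groups alone, a replicate block and each library left out. Named genes were both members, the genes behind the title tags, the 2 nearest tested neighbours on each side, the 5 most alike genes and, from each list and comparison, up to 4 called genes with the largest change, with Hmga2 throughout; exceptions are named as such. Of the genes most alike to Lin28a, 1 is not reported here. Hosts of let-7 were matched by position, and 2 of the 8, 6720427I07Rik and D630033A02Rik, were added after the data were seen. Members and lists were chosen with earlier results of these data known. MicroRNA sequences come from RefSeq (GRCm38.p6) and target sites from GENCODE transcripts.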

Additional observations from a re-analysis of the deposited data

Results flagged for a closer look

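Lin28a in the fourth global lung at E18.5 stood at 744.2 CPM, far above the other 4 of its group at 447.6 to 531 CPM. Hmga2 in the fourth global lung at E14.5 stood at 529.2 CPM, against 353.4 to 362.7 CPM in the other 3, and the same library had 430 CPM of kidney tubule markers. The part of those markers was not tested. The gap to the next library was 0.719 of the range for Lin28a, just over the limit of 0.710, and 0.947 for Hmga2, over its limit of 0.829. Chance passes such a limit in about 1 of 20 groups.

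Levels of Lin28a and Lin28b differed between some sites of Lin28a expression at E18.5 by direct edgeR tests. The part of the Lin28a level in the Lin28b differences was not tested. Lin28a had a log2 difference of -0.84 in global against epithelial lungs, a call that DESeq2 and 4 single libraries ended. Lin28b had a difference of 3.11 in global against epithelial lungs, where each of the 5 global libraries was above each of the 3 epithelial ones. It had a difference of -2.57 in epithelial against mesenchymal lungs, where both mesenchymal libraries lay above all 3 epithelial ones.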

How the results depend on the processing

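The 6 calls of Lin28a over controls and the Lin28b calls in global lungs at E16.5 and E18.5 kept their direction and call under every alternative run. With RLE scaling, Lin28a in epithelial against mesenchymal lungs passed (1.04, edgeR adjusted p = 0.0429), and with the compared groups alone it passed too (0.96), as did Lin28a in global lungs from E12.5 to E18.5 (0.69). DESeq2 ended the Lin28a call in global against epithelial lungs (-0.89). Let-7 targets called at E12.5 numbered 3 with the compared groups alone and 11 with DESeq2, against 7. All genes called at E12.5, 41 in edgeR, numbered 26 without the filter, 11 with the compared groups alone, 25 with the replicate block and 139 with DESeq2. Those in epithelial lungs fell from 6077 to 3468 with the compared groups alone, and those at E14.5 from 2361 to 1319 with the block. The cause was not tested.

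The labels do not say whether replicate numbers pair the samples, and the main fit did not pair them. Deviations of 19 same-numbered pairs correlated between -0.15 and 0.22, with 6 over 0.1. In 5 pairs the correlation was highest with the control of the same number. Correlations of this size cannot settle whether samples were paired. With the replicate block, Lin28b in mesenchymal lungs was 1.33 and no longer called (edgeR adjusted p = 0.0628), Lin28a in global lungs from E12.5 to E14.5 was 0.00, and Lin28a in global against mesenchymal lungs was -0.07.

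With single libraries left out, Lin28a spanned -2.75 to 0.72 in controls from E12.5 to E14.5, -0.79 to 0.67 from E12.5 to E18.5 and -2.40 to 0.95 from E14.5 to E16.5. Its change of the global effect spanned -0.63 to 2.85 from E12.5 to E14.5 and -0.92 to 2.44 from E14.5 to E16.5. In global lungs it spanned -0.05 to 0.16 from E14.5 to E16.5, and between sites 0.69 to 1.21 (epithelial against mesenchymal), -1.07 to -0.55 (global against epithelial) and -0.05 to 0.36 (global against mesenchymal). Lin28b spanned -1.90 to -1.11 and -1.98 to -1.19 over the first 2 control steps, -1.42 to -1.03 over the first global step, 0.66 to 1.45 against controls at E14.5 and 1.32 to 1.68 in mesenchymal lungs. Its change of the global effect spanned -0.16 to 0.63 from E12.5 to E14.5, -0.31 to 0.22 from E16.5 to E18.5 and 0.94 to 1.48 from E12.5 to E18.5. Let-7 targets called at E12.5 spanned 4 to 11. All genes called spanned 8 (without control 3) to 358 (without global 1) at E12.5, 1274 (without control 3) to 2283 at E14.5 and 6550 (without mesenchymal 2) to 10082 in mesenchymal lungs.

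At this depth Lin28b rests on 24 reads over the 5 controls of E18.5 and 7 over the 3 epithelial libraries, and Lin28a on 3 to 54 reads per control.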
